A study of Mus musculus with 11 samples.

Results

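Dendritic cells were sought among the single cells of cerebral cortex from mice with experimental autoimmune encephalomyelitis (EAE), a model of brain inflammation raised by immunizing against a myelin peptide. Cells were chosen on their own counts of unique molecular identifiers (UMIs, each counted as 1 captured transcript). A cell entered the dendritic gate with at least 20 UMIs of the MHC class II genes H2-Aa, H2-Ab1 and Cd74, at least 2 UMIs of Flt3, Xcr1, Clec9a, Ccr7, Fscn1 and Zbtb46 together, at most 3 of the complement genes C1qa and C1qb, and at most 1 of the lymphocyte genes Cd79a, Cd3d and Cd3g. The gate held 132 cells, 69 in the library EAE 1 and 63 in EAE 2, of 16418 EAE cells and 50625 cells of the whole series that had 501 to 5999 genes and under 25% mitochondrial UMIs. These genes chose the members, so their levels below are a description and were not tested.

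Dendritic cells take up antigen, cut it into peptides and show the peptides to T cells on MHC molecules. Type 1 conventional dendritic cells carry Xcr1 and Clec9a and are known for presenting antigen on MHC class I, and type 2 cells mainly serve MHC class II. On maturation a dendritic cell gains Ccr7, the receptor that guides it toward lymph nodes, and Fscn1, an actin-bundling protein of its processes. The healthy brain tissue itself holds few dendritic cells, which lie mostly in the meninges and the choroid plexus.

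All mice were C57BL/6. The 2 EAE libraries came from mice of 7 to 11 weeks given the myelin peptide MOG in complete Freund's adjuvant with pertussis toxin, and were taken at the peak of disease. The 3 adult libraries came from untreated mice of the same ages, and 4 juvenile (postnatal day 10) and 2 aged (18 months) libraries were compared for the share of cells only. Each library pooled the cortex of several mice (6 per juvenile or adult sample, 3 per aged or EAE sample) after perfusion, removal of the meninges and depletion of myelin, so that single animals cannot be told apart and dendritic cells of residual meninges cannot be told from those of the tissue. The EAE libraries held 34326349 and 34123281 UMIs, and the 11 libraries ranged from 15755504 to 34326349.

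The 5 genes that mark the cells were part of the gate, so their levels describe the choice and do not check the label. Genes listed for dendritic cells that the gate did not use are given with the macrophage comparison. Beside microglia they are given there only for Cst3 and as sums of lists. Ccr7 (chr11:99144196-99155077, minus strand, build GRCm38) reached 1760.1 CPM (its UMIs in the summed cells, scaled to a common total) in dendritic cells of EAE 1 and 2139 in EAE 2, against 0.960 and 2.81 in macrophages of the same libraries. Fscn1 (chr5:142960343-142973185, plus strand) stood at 1278 and 1485 CPM in dendritic cells and at 2.56 and 2.46 in macrophages. Flt3, the receptor of the growth factor on which dendritic cells depend, had UMIs in 39 of 69 and 31 of 63 dendritic cells, and in 18 of 1078 and 19 of 1125 microglia. Its level was 203 and 165 CPM in dendritic cells, 6.40 and 8.42 in macrophages and 6.45 and 4.93 in microglia. Zbtb46, a transcription factor of conventional dendritic cells, stood at 32.5 and 42.0 CPM, and Xcr1 at 8.12 and 12 CPM. Macrophages were gated to hold at most 1 UMI of the 6 dendritic genes, which fixes the side of these differences against macrophages. Fscn1 was not confined to the gate, since EAE microglia held 111 and 99.9 CPM and 267 of 1078 and 286 of 1125 microglia had a UMI of it.

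Cells with genes of other types were present in the gate. By limits set after the data were seen, 8 of 69 cells in EAE 1 and 3 of 63 in EAE 2 carried over 2 UMIs of B cell genes, among them Ms4a1, Ebf1, Pax5 and Cd79b, and 6 and 1 carried over 5 UMIs of the endothelial genes Cldn5, Flt1, Pecam1 and Cdh5. Over 2 UMIs of Siglech, Ccr9, Klk1 and Cox6a2, genes of plasmacytoid dendritic cells, were found in 1 cell of each library. Without them 55 and 58 cells were left, and 13 of the 14 cells removed from EAE 1 and 3 of the 5 from EAE 2 were Ccr7/Fscn1-positive. No limit was set on monocyte and macrophage genes, and 6 gated cells in EAE 1 and 6 in EAE 2 held over 20 UMIs of Lyz2. The 9 B cell genes listed summed to 655 and 252 CPM in the dendritic cells and 45.1 and 57.9 CPM in macrophages, and the 5 endothelial genes to 950.4 and 474 CPM against 260 and 255 CPM. Monocyte and macrophage genes, led by Lyz2, summed to 7571 and 5478 CPM in the dendritic cells and 42613 and 41334 CPM in macrophages, with 12 of 13 detected and Arg1 at 0 in the dendritic cells. Of 9 microglial genes 7 were detected in each dendritic sum, with P2ry12 and Sall1 at 0 in EAE 1 and Sall1 and Olfml3 in EAE 2, and together they stood at 157 and 192 CPM in dendritic cells, 109 and 114 CPM in macrophages and 6956 and 6767 CPM in microglia. The macrophage gate allowed at most 1 UMI of Cldn5 and Flt1 together. It also allowed at most 1 of P2ry12, Tmem119, Gpr34, Sall1, Siglech and Olfml3, of which microglia needed at least 3. It required at least 10 UMIs of Lyz2, Cd68, Fcgr1 and Ms4a7. The gates thus set part of the endothelial, microglial and monocyte differences from macrophages. Ttr, the transcript of choroid plexus epithelium, was counted at 4695 and 4758 CPM in dendritic cells and at 4975 and 5625 CPM in macrophages. The part of these cells and transcripts in each result was not tested beyond the values without the cells of other types that are given below.

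At the edges of the gate, 18 cells in EAE 1 and 15 in EAE 2 had exactly 2 UMIs of the 6 dendritic genes, while 54 and 58 cells that met every other limit had exactly 1. The cells just inside had a median of 270.0 and 393 MHC class II UMIs and those just outside 232.5 and 236.5. Another 4 and 9 cells held at least 10 UMIs of Ccr7 and Fscn1 and were kept out only because their MHC class II count was under 20, with a median of 11 and 7 such UMIs. Of these, 4 and 8 had UMIs of the chemokines Ccl22 or Ccl17.

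The share of cells in the gate was compared between EAE and adult cortex. It was 0.829% in EAE 1 (95% exact binomial interval 0.646 to 1.05%) and 0.778% in EAE 2 (0.598 to 0.995%). In adult cortex it was 0 of 3184 cells in Adult 1, which allows a share of up to 0.0942% by 3 counts and 0.116% by the exact interval, 0.344% (13 cells, 0.183 to 0.587%) in Adult 2 and 0.514% (20 cells, 0.314 to 0.793%) in Adult 3. Both EAE libraries lay above the 3 adult ones, by 0.518 percentage points on average, and the two-sided exact permutation test gave p = 0.2, where 2 against 3 libraries cannot go below 0.1. Adult 2 and Adult 3 differed in their microglia by no more than the sampling of cells (mean squared z 1.01), but by more in their few dendritic cells (1.40) and macrophages (2.14), and with them counted as 1 sample the adult mean was 0.214% ± 0.303 (SD, n = 2) against 0.804% ± 0.036 (SD, n = 2) in EAE (exact permutation p = 0.333, the smallest that 2 against 2 allows). When every cell was thinned to 1500 UMIs and cells with fewer were left out (7387 and 7188 cells remained in EAE and 2778, 3376 and 3448 in adult cortex), the groups overlapped: 0.514% and 0.487% in EAE against 0.036%, 0.474% and 0.493% in adult cortex (exact permutation p = 0.6), and the mean difference was smaller at 0.166 percentage points. Removing UMIs also makes the gate's upper limits, on C1q and lymphocyte genes, easier to meet. Cells shut out at full depth can then enter. The thinned gate held 16 cells of Adult 2, where the full counts gave 13, and 1 cell of Adult 1, where they gave none. It held fewer in Adult 3 (17, not 20), EAE 1 (38, not 69) and EAE 2 (35, not 63). The thinned shares are thus not those of an unchanged gate, and the part of depth was not tested. Without cells of other types the shares were 0.661% and 0.716% in EAE and 0, 0.185% and 0.334% in adult cortex (exact permutation p = 0.1). Aged libraries stood at 0.216% and 0.168% and juvenile libraries between 0.146% and 0.336%. EAE 1 and EAE 2, whose dendritic cells also differed by about the sampling noise (mean squared z 1.06), were not merged in any of these tests. Merging them would leave 1 EAE sample, whose spread cannot be measured. Intervals and limits cover counting error only, and a share of captured cells also moves with every other cell type in the suspension.

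**Figure D1:**
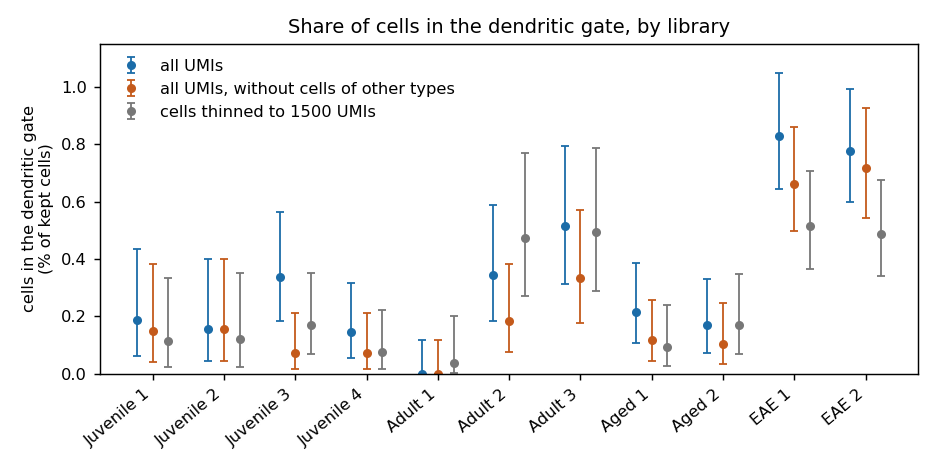
Share of kept cells in the dendritic gate (percent) in each of the 11 libraries, from all UMIs, from all UMIs without cells of other types, and after thinning each cell with at least 1500 UMIs to that number. Points are libraries and bars are 95% exact binomial intervals. Both EAE libraries (0.829% and 0.778%) lie above the adult ones with all UMIs and overlap them after thinning. Thinning also makes the upper limits of the gate easier to meet.

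Within the gate, 47 of 69 cells in EAE 1 (68.1%) and 46 of 63 in EAE 2 (73.0%) were Ccr7/Fscn1-positive by at least 2 UMIs of the 2 genes together. Both genes are gained on maturation, but 2 UMIs of Ccr7 alone meet this limit. The name therefore does not make each such cell mature or migratory. The mean was 70.6% ± 3.46 (SD, n = 2). Ccr7 had UMIs in 42 of the 47 cells and in 45 of the 46, and Fscn1 in 26 and in 30 of them. Xcr1/Clec9a-positive cells that were not Ccr7/Fscn1-positive numbered 6 and 2 (8.70% and 3.17%, mean 5.94% ± 3.90 SD, n = 2), and the other dendritic cells 16 and 15. The share of Ccr7/Fscn1-positive cells follows the limits of the gate: it was 84.3% and 89.6% where 3 dendritic UMIs were required, 86.8% and 94.3% after thinning to 1500 UMIs, and 61.8% and 74.1% without cells of other types. Adult libraries had 12 of 13 and 18 of 20 such cells, of which 6 and 7 carried genes of other types.

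Dendritic cells were then compared with the 1071 macrophages of the same EAE libraries (560 and 511 cells with at least 10 UMIs of Lyz2, Cd68, Fcgr1 and Ms4a7), over sums of UMIs per library. Besides the dendritic genes, the macrophage gate allowed at most 1 UMI each of sets of microglial, perivascular macrophage, neutrophil, lymphocyte, natural killer and endothelial genes. The 2 populations had like depth, with medians of 5398 and 5322 UMIs per dendritic cell and 5583.5 and 5528 per macrophage. Of 10743 genes tested besides those of the gates, 2104 (19.6%) were called: 919 were higher in dendritic cells (8.55% of those tested) and 1185 lower (11%) by edgeR's quasi-likelihood test at an adjusted p under 0.05, with a median log2 fold change of -0.07 over all genes. Of the listed groups, 27 of 32 tested genes of mature migratory dendritic cells were higher, and 20 of 20 of phagocytosis and complement and 13 of 23 of pattern recognition were lower. Without cells of other types 1929 genes were called, 1740 of them shared.

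Among the largest increases were genes that macrophages nearly lacked. Cacnb3, a calcium channel beta subunit (chr15:98630840-98644529), stood at 257 and 381 CPM in dendritic cells and at 0.320 and 0.351 in macrophages, which gave 9.54 ± 0.61 (log2 fold change with its standard error) and an adjusted p of 1.64e-05. Il4i1, a secreted L-amino acid oxidase (chr7:44816387-44840809), stood at 127 and 195 CPM against 0.320 and 0 (log2 fold change 9.38 ± 0.54, adjusted p = 1.83e-13). Nudt17 had 67.7 and 108 CPM and no UMI in either macrophage sum, so that it was at least 173-fold higher by the limit of 3 counts over the population. Mreg, melanoregulin, had 62.3 and 93.0 CPM against 0.320 and 0, and Serpinb6b, an intracellular protease inhibitor, 544 and 723 CPM against 4.48 and 3.86.

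Among the largest decreases was that of C5ar1, the receptor of complement fragment C5a, which stood at 2.71 and 6.00 CPM in dendritic cells and 203 and 182 in macrophages (log2 fold change -5.64 ± 0.33, adjusted p = 9.52e-14). Saa3, an acute-phase apolipoprotein, had 19 and 63.0 CPM against 2304 and 2385, with an adjusted p of 0.0425 that rose to 0.283 without EAE 1 and 0.288 without EAE 2. Thbs1, thrombospondin, had 10.8 and 45 CPM against 892 and 918. Apoc2, an apolipoprotein, had 10.8 and 18.0 CPM against 462 and 413, and its adjusted p was 0.0544 without EAE 2.

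**Figure D2:**
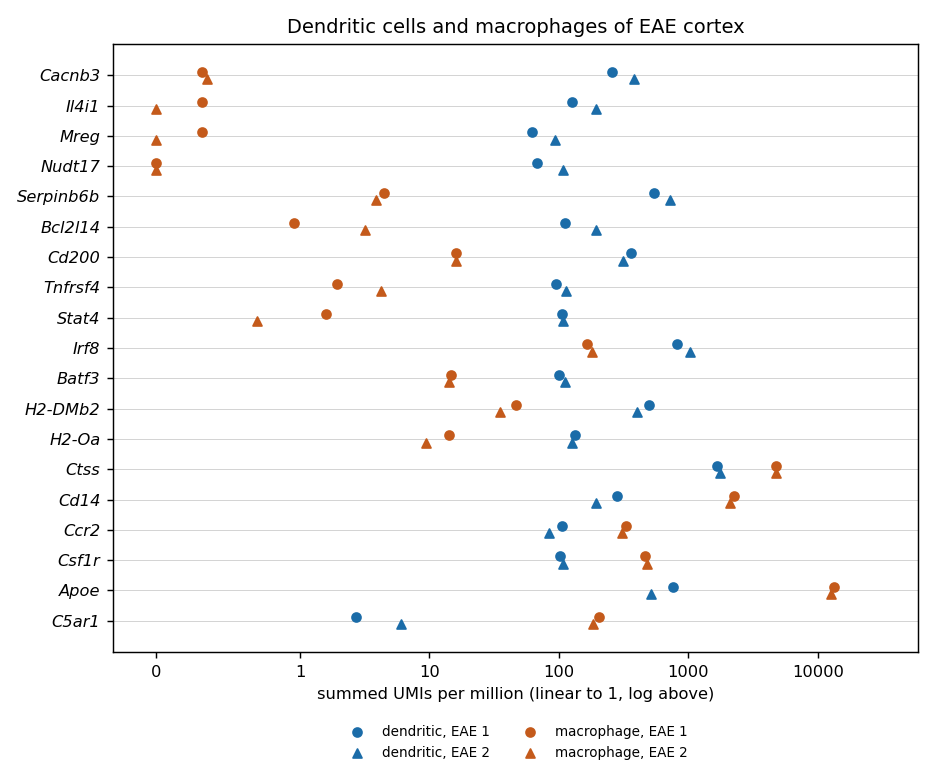
CPM in summed cells (log axis, linear below 1) of 19 genes in dendritic cells and macrophages of EAE 1 and EAE 2; each point is 1 population of 1 library. Cacnb3, Il4i1, Mreg and Nudt17 lie at or near 0 in macrophages, and C5ar1 lies at 6.00 CPM or less in dendritic cells.

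Of 36 genes listed for mature migratory dendritic cells, 2 were gate genes, 2 were too low to test, and 27 of the other 32 were higher than in macrophages and none lower, with a median log2 fold change of 2.89. Since 2 members of the list helped to choose the cells, this count is no independent check of the label. Bcl2l14, a Bcl-2 family member, stood at 111 and 192 CPM against 0.960 and 3.16 (log2 fold change 6.03 ± 0.38, adjusted p = 3.57e-13). Of 13 tested genes of dendritic cells in general, 10 were higher and 1 (Amica1) lower (10 higher and none lower without cells of other types). Cst3, cystatin C, a protease inhibitor abundant in dendritic cells, stood at 14963 and 14738 CPM against 3040.5 and 3167, and at 21230.0 and 21583 CPM in microglia. The 12 genes of this list other than Cst3 and the gate genes summed to 1535 and 1641 CPM in dendritic cells, 574 and 555 in macrophages and 386 and 365 in microglia. Traf1, a signaling adaptor of TNF receptors, stood at 414 and 528 against 40.3 and 36.8. P2ry10, a receptor for lysophospholipids, was higher as well (198 and 231 against 13.8 and 8.77 CPM). Among 13 tested genes of type 1 cells, 6 were higher and 2 (Naaa and Ppt1) lower. Batf3 (100.2 and 111 against 14.7 and 14.0 CPM) and Irf8 (815 and 1026 against 164 and 181 CPM), transcription factors this subset requires, were among the 6. Among 16 tested genes of type 2 cells 5 were higher and 5 lower, with Cd7 at 160 and 108 against 1.28 and 1.40 CPM, and Clec12a and Csf1r, the receptor of macrophage colony-stimulating factor, lower (Csf1r 103 and 108 against 461 and 480 CPM). The 19 genes of the type 1 list, gate genes included, summed to 2448 and 3135 CPM in dendritic cells and 2149 and 2153 CPM in microglia. The 18 of the type 2 list summed to 3171 and 4032 CPM in dendritic cells and 3703 and 3631 CPM in microglia. The 36 of the mature migratory list, gate genes included, summed to 19878 and 27056 CPM in dendritic cells and 4613 and 4242 CPM in microglia.

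The MHC class II genes of the gate were at like levels in both populations, with H2-Aa at 13214 and 12737 CPM in dendritic cells and 11837 and 11021 CPM in macrophages. Of 12 further genes listed for the class II pathway 7 were higher and 4 lower, and the 7 include Cd209a, a lectin that is not part of the pathway. The higher ones included H2-Oa (133 and 126 against 14.1 and 9.47 CPM), H2-Ob (81.2 and 102 against 6.72 and 4.91 CPM) and H2-DMb2 (493 and 399 against 46.4 and 35.1 CPM, log2 fold change 3.29 ± 0.14, adjusted p = 6.86e-17). H2-O and H2-DM govern the loading of peptides, and the other H2-DM chains were not higher: H2-DMb1 was lower (474 and 528 against 673 and 671 CPM, log2 fold change -0.59 ± 0.10) and H2-DMa was not called (1191 and 1149 against 1279 and 1133 CPM, adjusted p = 0.111). H2-Oa and H2-Ob are also known from B cells, whose genes the gate held in part. Without cells of other types the count over this list, which holds Cd209a, stayed at 7 higher and 4 lower of 12. The proteases that cut antigen, Ctss (1663 and 1743 against 4729 and 4752 CPM) and Lgmn, were lower. Of 19 class I pathway genes 8 were higher and 3 lower, with Psme2, a proteasome activator subunit, at 1013 and 1188 against 397 and 417 CPM and Tapbpl, a peptide editor, at 165 and 144 against 58.3 and 60.4 CPM.

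Of 18 tested genes of costimulation and T cell restraint, 11 were higher and 2 (Havcr2 and Lgals9) lower. Tnfrsf4 (OX40) stood at 94.8 and 114 CPM against 1.92 and 4.21, Tnfrsf9 (4-1BB) at 67.7 and 75 against 2.56 and 2.81, Cd200, the ligand of an inhibitory myeloid receptor, at 360.1 and 312 against 16.0 and 16.1, and Pdcd1lg2 (PD-L2) at 65.0 and 81.0 against 3.52 and 6.32. Cd80 and Cd86, classic signals to T cells, and the receptor gene Cd40 were among the 11.

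Chemokines were lower in dendritic cells than in macrophages in 9 of 19 tested, and Cxcl16 was higher (9 lower and 2 higher without cells of other types). Cxcl2, a neutrophil attractant, stood at 27.1 and 48.0 CPM against 817 and 628, Ccl8 at 21.7 and 30.0 against 223 and 188, Ccl12 at 35.2 and 6.00 against 155 and 174, and Ccl7 at 0 and 6.00 against 62.7 and 91.6. Ccl7 had an adjusted p of 0.141 without the replicate block. Among 13 tested genes listed for chemokine receptors and other receptors of migration, 6 were lower and 3 higher (6 lower and 1 higher of 11 without cells of other types). The lower ones included the monocyte receptors Ccr2 (106 and 84.0 against 330 and 309 CPM) and Ccr1. The 3 higher were Ccr9 and 2 receptors that are not chemokine receptors, Gpr183 and S1pr1. Ccr1 had an adjusted p of 0.0994 without EAE 2. Of 19 cytokine genes 3 (Il12b, Il15 and Ltb) were higher and 6 lower, with Vegfa at 27.1 and 12 against 103 and 94.7 CPM.

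Among 31 tested genes of the transcription factor list, which also holds the receptor Notch2, 17 were higher and 8 lower. Stat4, a mediator of interleukin 12 signals, stood at 106 and 108 CPM against 1.60 and 0.702 (log2 fold change 6.30 ± 0.47, adjusted p = 1.56e-11), and Bcl11a at 56.9 and 51.0 against 6.08 and 3.86. Maf stood at 10.8 and 0 CPM against 93.8 and 105. All 20 tested genes of phagocytosis and complement other than gate genes were lower, among them Apoe (766 and 519 against 13394 and 12717 CPM), C3ar1 (8.12 and 15 against 197 and 172 CPM) and Fcgr4 (19 and 27.0 against 315 and 332 CPM), in populations that were gated on low C1q and on Fcgr1 and Cd68. Of 23 genes of pattern recognition 13 were lower, including Cd14 (282 and 192 against 2260.5 and 2093 CPM) and Clec4d, and Ly75 (DEC-205) was higher (12 lower and 2 higher without cells of other types). Of 16 cell cycle genes Stmn1 was higher and Hmgb2 lower, and without cells of other types neither passed (adjusted p = 0.448 for Stmn1 and 0.0915 for Hmgb2).

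The 93 Ccr7/Fscn1-positive cells were compared next with the 31 other dendritic cells, with library as a term and the macrophage sums in the same fit. Of 3461 genes tested, 586 (16.9%) were called: 316 were higher in the positive cells (9.13%) and 270 lower (7.8%) by edgeR's quasi-likelihood test at an adjusted p under 0.05, with a median log2 fold change of -0.004 over all genes. Without cells of other types 587 genes were called, 486 of them shared. The other dendritic cells rest on 16 and 15 cells per library, and 388 and 339 genes were called where the dendritic sums of EAE 1 or EAE 2 were left out and microglia sums added to give the fit residual degrees of freedom.

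The 5 genes with the largest fitted changes had no UMI in the other dendritic cells, so that only bounds are known, and the measured log2 fold changes of Ccl22 (6.42) and Socs2 (6.38) exceed those bounds. Serpinb6b (chr13:32965209-32979067) stood at 868 and 1032 CPM, at least 59.1-fold higher by the limit of 3 counts, and Stat4 at 168 and 154 CPM, at least 10.0-fold higher. Nudt17 (108 and 154 CPM), Slc27a3, a fatty acid transporter (134 and 124 CPM), and Gnb4, a G protein subunit (117 and 137 CPM), were at least 8.15, 8.02 and 7.88-fold higher. Of 31 tested genes of the mature migratory list, 28 were higher and none lower, with a median log2 fold change of 3.31, or 3.03 with genes absent from the other cells set to their bound. The list also holds Ccr7 and Fscn1, by which the cells were split, so this count describes the split and is no independent check of it. Genes with no UMI in the other cells could be called in 1 direction only. The sums of the other cells were also smaller (100650 and 85815 UMIs against 231489 and 233626). Il12b, the p40 subunit of interleukins 12 and 23, stood at 64.8 and 124 CPM against 0 and 0 (at least 5.88-fold higher), and Birc2, an inhibitor of apoptosis, at 108 and 124 against 0 and 0 (at least 7.22-fold). Cd63, a tetraspanin of late endosomes, stood at 950.4 and 989 CPM against 9.94 and 58.3, and Socs2, a suppressor of cytokine signals, at 475 and 385 CPM against 9.94 and 0, both chosen after their values were seen.

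The decreases with the largest fold changes came from few UMIs. Siglech, a lectin of plasmacytoid dendritic cells and microglia, stood at 0 and 4.28 CPM in positive cells against 89.4 and 221 in the others (log2 fold change -5.99 ± 1.01, adjusted p = 0.00115), but its UMIs in the others lay in 2 and 3 cells, and without cells of other types it was not among the genes tested. Of 8 tested genes of the plasmacytoid list 5 were lower. Without cells of other types none of the 5 still tested was lower and 1 was higher. The removal itself used Siglech and Ccr9, so their outcome without those cells was set in part by it and is no check. Milr1, an inhibitory receptor of mast cells, had 13 and 4.28 against 139 and 105 CPM, Rgs18, a regulator of G protein signaling, 0 and 12.8 against 139 and 58.3 CPM, and Cd7 17.3 and 55.6 against 517 and 256 CPM. The gene Gm9733 had 13 and 8.56 against 109 and 117 CPM. Rgs18 had an adjusted p of 0.525 without EAE 1. Of 13 tested genes of monocytes and macrophages 6 were lower and none higher. Lyz2, lysozyme, stood at 540.0 and 548 CPM against 5604 and 3612 (log2 fold change -3.0 ± 0.16, adjusted p = 1.09e-07), Ms4a6c at 156 and 163 against 755 and 956, and Ccr2 at 51.8 and 25.7 against 248 and 256. Single cells held much of the Lyz2 sum of the others, 351 of 564 UMIs in EAE 1 and 132 of 310 in EAE 2. Of 14 tested genes of type 2 cells 8 were lower and none higher (6 of 13 lower and 1 higher without cells of other types), with Cd300a at 47.5 and 34.2 against 368 and 210 CPM and Itgam (CD11b) at 17.3 and 21.4 against 59.6 and 163 CPM, where Itgam had an adjusted p of 0.501 without EAE 2. The positive cells in turn held more of the endothelial genes, whose 5 members summed to 1369 and 531 CPM against 288 and 373 CPM. Of the 3 tested, Cldn5 (393 and 218 against 89.4 and 69.9 CPM) and Flt1 (246 and 89.9 against 49.7 and 35.0 CPM) were higher. Neither of the 2 that could be tested without cells of other types was called (edgeR adjusted p = 0.417 for Cldn5). The removal itself used Cldn5 and Flt1, so this outcome was set in part by it and is no check.

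**Figure D3:**
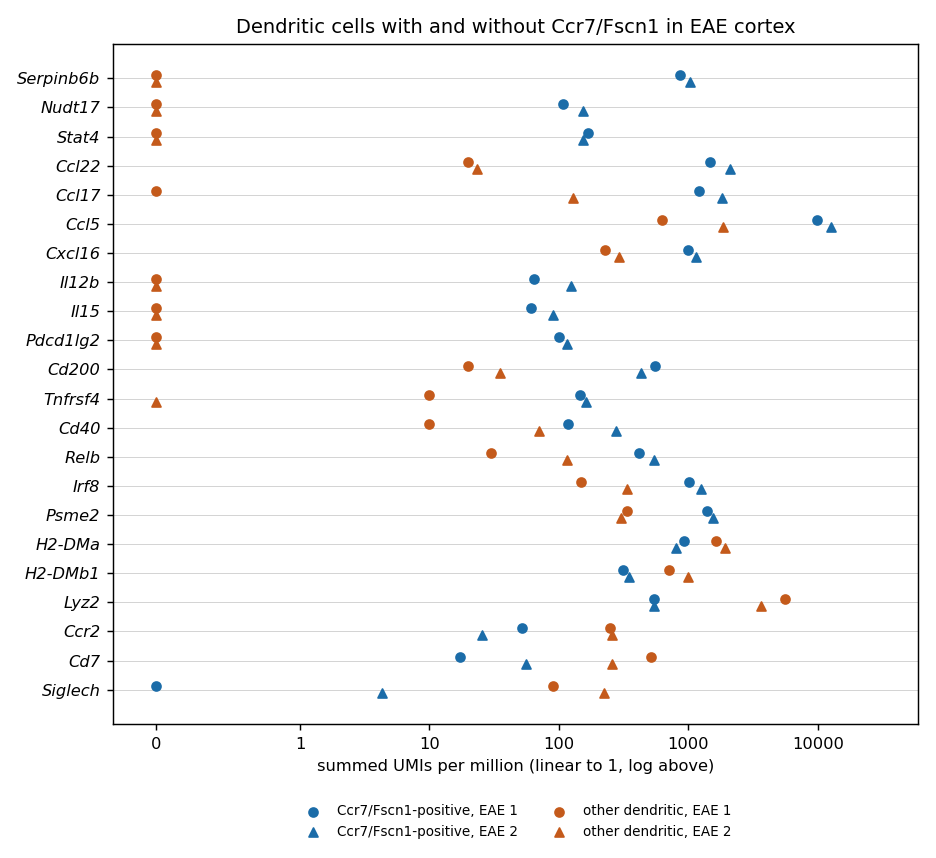
CPM in summed cells (log axis, linear below 1) of 22 genes in Ccr7/Fscn1-positive and other dendritic cells of EAE 1 and EAE 2; each point is 1 population of 1 library. Serpinb6b, Nudt17, Stat4, Il12b, Il15 and Pdcd1lg2 had no UMI in the other cells, and Lyz2, Ccr2, Cd7 and Siglech were higher there.

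Of 17 tested class I pathway genes 8 were higher and none lower in positive cells. Of 11 tested genes of the class II list outside the gate, a list that also holds the lectin Cd209a, 3 were lower and none higher (2 of 10 without cells of other types). Psme2 stood at 1395 and 1558 CPM against 338 and 303 (log2 fold change 2.26 ± 0.18, adjusted p = 1.73e-06), Psme1 at 985 and 1186 against 596 and 478, and H2-Q7, whose reads can be shared with near-identical class I genes, at 605 and 749 against 199 and 408. H2-DMb1 stood at 315 and 347 against 715 and 1002 CPM (log2 fold change -1.30 ± 0.19, adjusted p = 0.000422) and H2-DMa at 933 and 800.4 against 1639 and 1923 CPM (-0.97 ± 0.14, adjusted p = 0.000386), the chains of the molecule that loads class II peptides. Ctss was the third lower gene (1408 and 1498 against 1828 and 2459 CPM) and had an adjusted p of 0.15 without cells of other types, and of 0.0751 and 0.591 without EAE 1 and EAE 2. The gate gene H2-Ab1 stood at 7011 and 5915 against 10283 and 12492 CPM.

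Of 14 tested genes of costimulation and restraint 9 were higher and none lower. Pdcd1lg2 stood at 99.4 and 116 CPM against 0 and 0 (at least 6.68-fold higher), Tnfrsf4 at 147 and 163 against 9.94 and 0, Cd200 at 553 and 432 against 19.9 and 35.0 (log2 fold change 4.26 ± 0.41, adjusted p = 1.11e-05), and Tnfrsf9 at 108 and 103 against 0 and 11.7, with an adjusted p of 0.0801 without EAE 1. Signals to T cells (Cd80 and Cd86) and restraints of T cells (Cd274, PD-L1, and Pdcd1lg2) thus both appeared among the higher genes. The receptor gene Cd40 was among them as well.

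Among 15 tested chemokines 3 were higher and 3 lower (5 higher and 4 lower of 15 without cells of other types). Ccl22, which attracts T cells through CCR4 (chr8:94745590-94751699), stood at 1482 and 2102 CPM against 19.9 and 23.3 (log2 fold change 6.42 ± 0.31, adjusted p = 8.32e-09), with the same direction but adjusted p of 0.467 and 0.337 without EAE 1 and EAE 2. Cxcl16 stood at 998 and 1147 against 229 and 291 CPM, and Ccl9 was lower (134 and 154 against 825 and 804 CPM). Ccl17, the other CCR4 ligand, did not pass the test at 1218 and 1836 against 0 and 128 CPM (adjusted p = 0.0592), nor did Ccl5 at 9841 and 12627 against 626 and 1853 CPM (adjusted p = 0.0817). Without cells of other types both passed, with adjusted p of 0.00372 for Ccl17 and 0.00779 for Ccl5. The cytokine Il15 had 60.5 and 89.9 CPM against 0 and 0 (at least 4.68-fold higher), and Il1rn, the interleukin 1 receptor antagonist, 225 and 244 against 29.8 and 69.9. Without EAE 2 the adjusted p was 0.0703 for Il12b and 0.0656 for Il15, and without EAE 1 and EAE 2 it was 0.154 and 0.0908 for Il1rn.

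Of 28 tested genes of the transcription factor list 9 were higher and 5 lower, and the 5 include Notch2, a cell-surface receptor. Relb, a subunit of the NF-κB family needed for dendritic cell maturation (chr7:19606217-19629438), stood at 415 and 544 CPM against 29.8 and 117 (log2 fold change 2.83 ± 0.37, adjusted p = 0.00017), and Irf8 at 1007 and 1263 against 149 and 338 (2.32 ± 0.24, adjusted p = 1.55e-05). Rel and Nfkb2, of the same NF-κB family, were among the 9. Of 19 tested cytoskeleton and migration genes 8 were higher, including Cacnb3 (406 and 526 against 9.94 and 46.6 CPM), Marcks (328 and 449 against 39.7 and 46.6 CPM) and Swap70 (138 and 103 against 9.94 and 0 CPM), which organizes actin, and 6 were lower. None of the 5 tested cell cycle genes was called.

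Since 3 NF-κB genes were among the higher ones, promoters were searched for the NF-κB consensus, on both strands, in the RefSeq windows of 250 bases before to 50 after each gene's start (GRCm38.p6). A match was found for 37 of the 244 higher genes that had a window (15.2%), for 14 of 196 lower genes (7.14%), for 191 of the 2572 tested genes (7.43%) and for 1388 of 27025 genes in all (5.14%). Of the mature migratory list 2 of 26 genes with a window held one, Pdcd1lg2 and Nfkb2. The windows around 4 matches in higher genes, among them Nfkb2 (156 and 214 against 79.5 and 35.0 CPM) and the chemokine-binding receptor gene Ccrl2 (328 and 544 against 99.4 and 210 CPM), are shown with the match in capitals, each lying before 1 of the starts that RefSeq lists for the gene (that of Tnfrsf9 lies inside the gene's span in the GRCm38 annotation, chr4:150914562-150946102), and a match is a stretch of letters and not a measured binding site.
Tnfrsf9, chr4:150927932-150927991, plus strand: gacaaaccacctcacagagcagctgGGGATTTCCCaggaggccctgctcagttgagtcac
Ccrl2, chr9:111057540-111057599, minus strand: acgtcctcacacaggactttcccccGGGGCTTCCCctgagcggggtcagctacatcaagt
Pdcd1lg2, chr19:29410669-29410709, plus strand: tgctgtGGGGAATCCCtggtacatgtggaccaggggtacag
Nfkb2, chr19:46304673-46304732, plus strand: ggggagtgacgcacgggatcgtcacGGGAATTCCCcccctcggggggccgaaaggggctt

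The Ccr7/Fscn1-positive cells themselves divided by Fscn1. This division was chosen after the values were seen and has no test. Without cells of other types, 21 of 34 positive cells in EAE 1 (61.8%) and 28 of 43 in EAE 2 (65.1%) had at least 2 Fscn1 UMIs, 13 and 14 had none, and 1 cell of EAE 2 had 1. The median level of H2-Aa, H2-Ab1 and Cd74 together was 27414 and 17967 CPM in the cells with Fscn1 and 63902 and 50943 CPM in those without, with ranges that overlapped. The cells with Fscn1 had medians of 4336 and 4210.5 UMIs and those without 5398 and 6291.5. Ccr7 stood at 4521 and 4208 CPM with Fscn1 and 2104 and 1801 CPM without, and Ccl22 at 2972 and 3290 CPM with and 688 and 816 CPM without. Cd63 (1834 and 1759 against 358 and 79.3 CPM), Cacnb3 (843 and 926 against 96.3 and 56.6 CPM) and Tnfrsf4 (263 and 298 against 13.8 and 0 CPM) lay on the side of Fscn1. So did Socs2 (927 and 675 against 13.8 and 45.3 CPM) and Nudt17 (242 and 267 against 0 and 22.7 CPM), both of the mature migratory list. Ccl17 stood at 1907 and 958 CPM with Fscn1 and 1128 and 3478 CPM without, the order turning between the libraries, and 1 Ccr7/Fscn1-positive cell of EAE 2 held 176 UMIs of it. Ccl5, Cd80, Cd86 and Cxcl16 turned as well. Of 99 genes listed, 43 were higher and 22 lower with Fscn1 in both libraries, 20 turned and 14 were equal in at least 1 library. The 99 include Fscn1 itself, whose side the split fixed, and genes of the gate such as Ccr7, Flt3 and H2-Aa. No count over all genes was made, so these counts only describe the lists.

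**Figure D4:**
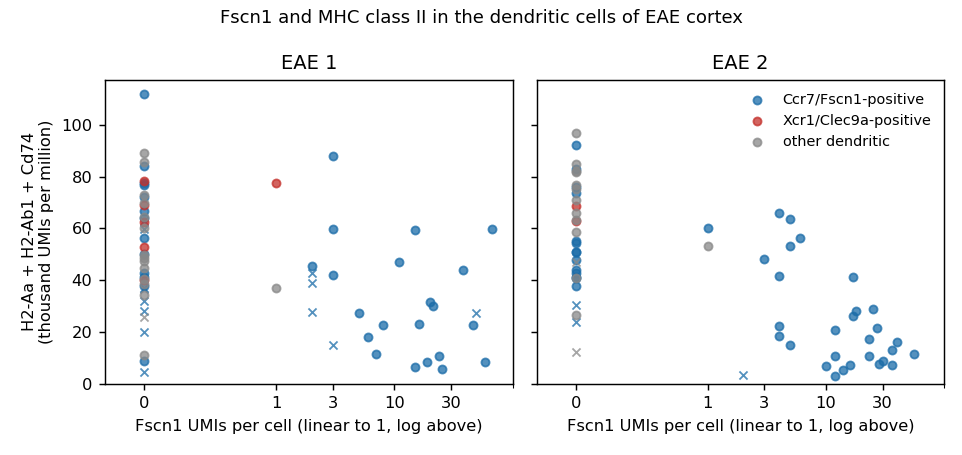
Fscn1 UMIs per cell (x axis, log above 1) against MHC class II CPM (H2-Aa, H2-Ab1 and Cd74) in the dendritic cells, by library and subset, with crosses for cells carrying genes of other types. Cells with 10 or more Fscn1 UMIs lie mostly in the lower part of the class II range, and cells without Fscn1 span it in EAE 1. In EAE 2 the lowest cell without Fscn1 lies at 12274 CPM, and cells with Fscn1 reach down to 2870 CPM.

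The cells of the same gate in adult cortex were set beside those of EAE. Summed without cells of other types, Adult 2 gave 7 cells and Adult 3 gave 13, so values are given with no test, and the gate genes among them are described only. Fscn1 had no UMI in either adult sum, which was 1372 and 1558 CPM in EAE, and none of the 6 and 11 Ccr7/Fscn1-positive adult cells had Fscn1. Ccr7 stood at 664 and 1429 CPM in the adult sums and 1943 and 2215 CPM in EAE. Ccl5, an attractant of T cells and monocytes, stood at 272 and 49.7 CPM in adult cells and 7943 and 9827 CPM in EAE, Ccl22 at 204 and 149 against 1107 and 1558, and Irf8 at 51.1 and 0 against 905 and 995. Cd200 was at 0 in both adult sums and at 361 and 322 CPM in EAE. Cacnb3, Nudt17, Bcl2l14 and Tnfrsf4 of the mature migratory list had no UMI in either adult sum. A count of 0 allows up to 62.8 CPM in Adult 2 and 45.8 in Adult 3 by the exact Poisson interval. In EAE Cacnb3 stood at 292 and 401 CPM, Bcl2l14 at 129 and 202, Tnfrsf4 at 89.5 and 120 and Nudt17 at 76.2 and 114. The EAE 1 intervals of Nudt17 (48.3 to 114) and Tnfrsf4 (59.0 to 130) reached below the Adult 2 limit. Other genes of that list were detected in adult cells, with Traf1 at 324 and 323 CPM against 448 and 556 in EAE. In the other direction, Cd209a (DC-SIGN), a lectin of type 2 and monocyte-derived cells, stood at 1226 and 1131 CPM in adult cells and 23.2 and 114 in EAE, Cd83, a maturation marker, at 1567 and 2250 against 922 and 1099.6, and H2-Ab1 at 15344 and 18916 against 9322 and 8190.2. These genes were chosen after their values were seen.

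**Figure D5:**
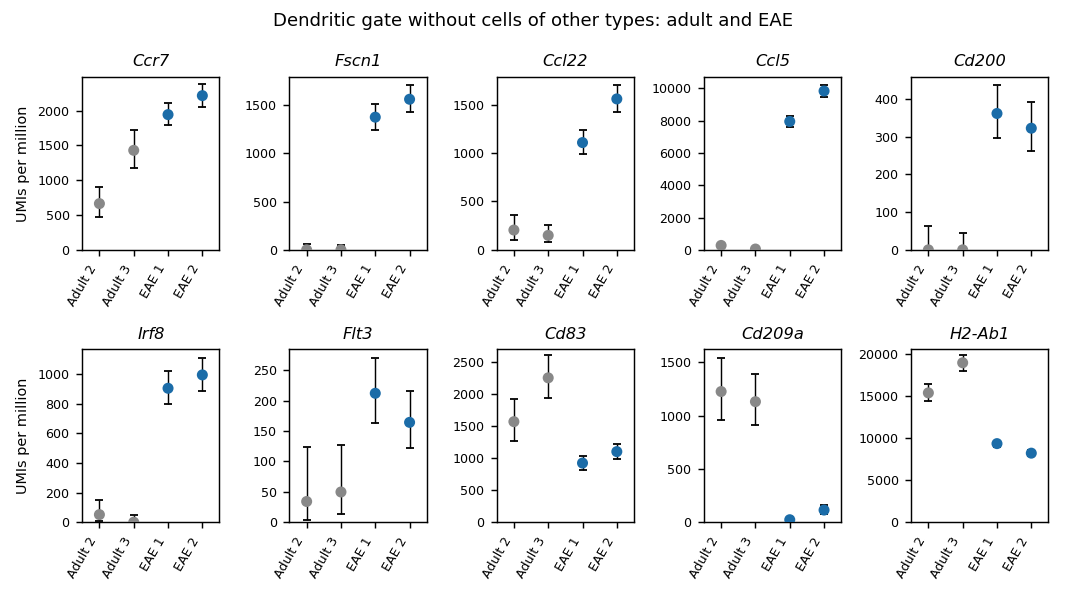
CPM of 10 genes in summed cells of the dendritic gate without cells of other types, for Adult 2, Adult 3, EAE 1 and EAE 2 (points), with 95% exact Poisson intervals that cover counting error only. Fscn1 and Cd200 are at 0 in both adult libraries, and Cd209a is at 1226 and 1131 CPM there.

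Xcr1/Clec9a-positive cells were too few for the planned test against other dendritic cells, with 6 and 2 cells where 10 per library were required. Each of the 6 in EAE 1 held 1 UMI of Xcr1 or Clec9a, and the 13 monocyte and macrophage genes summed to 16547 CPM in these 6 and 4098 CPM in the 2 of EAE 2, against 13095 and 10767 CPM in the other dendritic cells. The part of these transcripts in the values below was not tested. The 8 cells held 71 UMIs of Irf8 (1390.1 CPM), against 236 CPM in the other dendritic cells and 1135 CPM in the Ccr7/Fscn1-positive ones. Naaa, a lysosomal hydrolase, stood at 333 CPM against 113 in the other cells and 47.3 in the positive ones, Ppt1, another, at 313 CPM against 113 and 38.7, and Wdfy4, needed for cross-presentation, at 235 CPM against 64.4 and 15.1. Irf8, Naaa, Ppt1 and Wdfy4 were chosen after their values were seen, and their values rest on 12 to 71 UMIs each and were not tested. Not all of the type 1 list was higher in these 8 cells. Cadm1, Cd8a and Cxx1b had no UMI, which allows up to 72.2 CPM by the exact Poisson interval, against 12.9, 17.2 and 12.9 CPM in the positive cells. Batf3 stood at 97.9 CPM, against 53.6 in the other cells and 127 in the positive ones. Naaa and Ppt1 were also the 2 genes of this list called lower in dendritic cells than in macrophages.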

How the data were processed

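Single cells of cortex were captured with 10x 3′ v2 chemistry. The authors deposited, per library, a table of UMI counts per gene and cell, not normalized, on mm10 (submitters' processing notes: bcl2fastq 2.19.1.403, UMI-tools 0.5.3, STAR 2.5.3a, featureCounts 1.6.1). The study's own limits (over 500 and under 6000 genes, under 25% mitochondrial UMIs) were applied to all barcodes. Its removal of multiplets and lymphocytes was not repeated; Scrublet (scanpy 1.11.5) marked 2.49% and 2.46% of EAE cells, and results without them were computed.

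Counts were summed per library and population (at least 10 cells) and tested with edgeR 4.0.16 (quasi-likelihood, Benjamini-Hochberg adjustment, threshold 0.05, R 4.3.3), with library as a term because populations of 1 library share its animals. Deviations of same-library sums correlated at -0.0062 (dendritic cells and macrophages), -0.0385 (dendritic cells and microglia) and 0.0645 (macrophages and microglia). The fit of dendritic cells against macrophages also held microglia sums, and that of Ccr7/Fscn1-positive against other dendritic cells also held macrophage sums. The spread behind the p-values was thus estimated over all populations of a fit. In a fit given without EAE 1 or EAE 2, or with a library left out, only the dendritic sums of that library were left out. Its macrophage and microglia sums stayed in the fit. Genes used by the gates of the populations compared got no test. Between dendritic subsets, genes used only by the macrophage gate, such as Lyz2, Siglech and Cldn5, were tested. With 2 libraries per group, p-values measure only the spread between these libraries, which may be technical: dendritic counts of EAE 1 and EAE 2 differed by about the sampling noise (mean squared z 1.06 over 1830 genes), and 113 kept barcodes (1.36% of EAE 1) occurred in both. In simulated data with log2 changes of 2, edgeR recovered 96% of changed genes for dendritic cells against macrophages (9470 genes, 4.48% of calls false) and 97.5% for Ccr7/Fscn1-positive against other cells (3354 genes, 5.34% false). For each comparison all populations were drawn from 1 shared profile with a fixed dispersion of 0.02. The 200 changed genes were picked where at least 10 counts were expected in the smallest sum. Genes near 0 UMIs and sums carried by single cells were not simulated, so these rates do not describe the real calls.

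Named genes were the 5 largest changes in each direction among called genes with at least 50 CPM in both libraries of the higher population, and up to 4 such members per gene list; other called members named with values were chosen after their values were seen. Some genes that the rule names are not reported here. Members and lists were chosen with earlier results of these data known. Positions are from the GRCm38 annotation and promoter windows from RefSeq GRCm38.p6.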

Additional observations from a re-analysis of the deposited data

How the results depend on the processing

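Called genes for dendritic cells against macrophages numbered 2104, 1315 with DESeq2 (1293 shared) and 1582 to 1626 with a library left out; the other settings gave 1929 to 2250. Between Ccr7/Fscn1-positive and other dendritic cells 586 genes were called, 277 with DESeq2 (271 shared), 388 without EAE 1 and 339 without EAE 2 (282 and 271 shared). The higher genes were 53.9% of these calls in the reported fit, 75.8% with no filter on low counts, 74.7% without EAE 1 and 64% without EAE 2. Without the replicate block the counts were 2222 and 594; of the genes named by rule the missing block ended the calls of Ccl7, Hmgb2 and S100a8 against macrophages and of 1 gene between dendritic cells. Of 80 and 69 genes named by rule, 14 and 35 lost their call under at least 1 alternative. Sparc changed sign without cells of other types (1.23 to -0.56 on the log2 scale), and Nudt17 had an adjusted p of 0.528 with DESeq2 between dendritic subsets. The difference in share between EAE and adult cortex ranged from 0.375 to 0.632 percentage points with a library left out. The Ccr7/Fscn1-positive share was 86.9% with 3 dendritic UMIs required, 90.6% after thinning and 68.1% to 73.0% with a library left out; the Xcr1/Clec9a-positive share averaged 5.94%, 4.04% with 3 dendritic UMIs required, 2.74% after thinning and 7.18% without cells of other types, and was 3.17% to 8.70% with a library left out. The causes were not tested. The limit of 3 dendritic UMIs left 6 and 3 other dendritic cells, and the comparison of subsets was not run there, nor that of Xcr1/Clec9a-positive cells.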
